A study of Mus musculus and Homo sapiens with 14 samples.

Results

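The MYC, MAX and MXD network was followed here through 10 genes: the activators Myc, Mycn and Mycl, the shared partners Max and Mlx, and the repressors Mxd1, Mxd3, Mxd4, Mxi1 and Mnt. They were chosen by gene symbol, in upper case for human cells, and all 10 were found among the 20682 rows of each mouse table and the 19166 rows of the human table. The series profiled polyA RNA from acute myeloid leukemia cells in 14 libraries, 2 per group. RN2 is a mouse leukemia line driven by the MLL-AF9 fusion and mutant Nras, RN2c is RN2 carrying Cas9, and MOLM-13 is a human leukemia line with an MLL-AF9 fusion. RN2c cells were collected on day 2 after infection with guide RNAs against Sik3 (guides e1 and e3, 1 library each), against Mef2c (guides 1 and 2, 1 library each) or against Rosa26, a control locus (2 libraries), so the spread within each knockout group includes the difference between guides. RN2 cells received 350 nM YKL-05-099, a small molecule that blocks salt-inducible kinases, or 0.1% DMSO for 2 h. MOLM-13 cells, labelled as carrying an empty vector, received 250 nM YKL-05-099 or 0.1% DMSO for 2 h, and the RN2 library titles of this experiment also hold the word empty. All cells were grown in RPMI with fetal bovine serum and antibiotics. The labels give no selection or cloning after infection, so the knockout libraries may include cells with an intact target.

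MYC proteins bind DNA only as heterodimers with MAX, at E-boxes, and raise transcription of genes for ribosome assembly, nucleotide synthesis and metabolism. MXD proteins, MXI1 and MNT also pair with MAX, occupy the same sites and recruit SIN3 and histone deacetylases, and MLX pairs with MNT, some MXD proteins and the glucose-sensing factors MondoA and ChREBP. In myeloid cells, differentiation is known to bring a fall in MYC and a gain of MXD proteins, whereas MLL-rearranged leukemias depend on MYC. SIK3 phosphorylates class IIa histone deacetylases and so keeps them from repressing MEF2C, the transcription factor targeted by the other guides. The comparisons ask how each perturbation set the activators against the repressors.

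The libraries held between 13961461 and 24275290 reads. The 2 sgRosa26 libraries are the same in both knockout tables, with 0 genes differing in reads, so the sgSik3 and sgMef2c comparisons share their controls. The 2 libraries of each knockout group carry different guides, so they were infected separately and their spread includes the difference between guides. Nothing available states that libraries of the sgRosa26, DMSO or inhibitor-treated groups were separate cultures, so their spread may be technical. Each p-value measures the spread between these libraries only. Sik3 averaged 62.6% of its sgRosa26 level in sgSik3 cells (log2 fold change -0.68, SE 0.05, adjusted p = 5.7e-06), and Mef2c averaged 47.2% of its sgRosa26 level in sgMef2c cells (-1.08, SE 0.04, adjusted p = 8.0e-05). RNA from an edited allele can still be sequenced, so these levels do not measure editing. The myeloid markers Itgam, Spi1, Cd33 and Mpo were measured in all libraries, the 4 T cell markers had 0 reads in every RN2c library, and MOLM-13 cells held CD4 transcripts.

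Promoter sequences are shown for the 3 members with a whole E-box upstream of the start site, the letters that MYC-MAX, MXD-MAX and MNT-MAX dimers recognise. They come from RefSeq on GRCm38.p6, run 5′ to 3′ on the gene's own strand, and carry the E-box in capitals.
Mxd4, chr5:34187879-34187960, minus strand: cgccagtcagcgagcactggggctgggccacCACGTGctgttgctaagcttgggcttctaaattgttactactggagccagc
Mnt, chr11:74830756-74830851, plus strand: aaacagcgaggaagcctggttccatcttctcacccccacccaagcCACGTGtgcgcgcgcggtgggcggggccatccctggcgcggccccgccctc
Mlx, chr11:101087205-101087289, plus strand: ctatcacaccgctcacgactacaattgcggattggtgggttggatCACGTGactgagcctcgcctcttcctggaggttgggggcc
Counted from the start site, the E-box begins at position -219 in Mxd4, at -123 in Mnt and at -40 in Mlx. Max holds one that begins at -3 and runs across its start site. The letters CACGTG, which read the same on both strands, stood in 4 of the 9 members with a promoter window, against 8.09% of 27025 genes in the same table. A MEF2 motif, searched on both strands, was in 0 of the 9 members and in 3.70% of all genes. Myc was the member without a promoter window, so neither motif was looked for in its promoter. A match is a description of these windows and not a bound site, and a window without a match says only that the letters are not in it.

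Activator levels came from a single gene in the mouse lines. Myc lies on mouse chromosome 15 at 61985391 to 61990374 (GRCm38, plus strand) and encodes the activator itself. The partners Max (chromosome 12, 76937269 to 76962201, minus strand) and Mlx (chromosome 11, 101087277 to 101092207, plus strand) lie elsewhere in the genome. So do the repressors Mxd1 (chromosome 6, 86647042 to 86669161, minus strand), Mxi1 (chromosome 19, 53310518 to 53375810, plus strand) and Mnt (chromosome 11, 74830920 to 74845725, plus strand). Mycn, the paralog best known from neural tissue, had 0 reads in all 14 libraries, human ones included, which allows between 0.124 and 0.215 RPM (reads scaled to a common total) depending on the library, for counting error only. Mycl, the paralog first found in lung cancer, had 0 reads in 5 of 6 RN2c libraries and 2 reads in the other, sgRosa26 library 2, and 2 to 5 reads in each RN2 library. MYCL was well above that in MOLM-13, with 171 and 202 reads after YKL-05-099 and 202 and 315 reads after DMSO. Levels of different genes were set side by side with reads divided by exon length and by library total, on the RPKM scale, as mean ± SD over 2 libraries. Myc stood at 53.7 ± 2.04 in sgSik3 cells and 69.1 ± 4.19 in sgMef2c cells, against 90.9 ± 1.11 in sgRosa26 cells. It stood at 55.2 ± 5.04 in RN2 cells after YKL-05-099, against 80.1 ± 9.31 after DMSO. Myc was the highest member on this scale in every mouse group except sgSik3, where Mlx was higher. Mlx stood at 60.4 ± 0.372 in sgSik3 cells, against 51.3 ± 2.07 in sgRosa26 cells. In sgRosa26 cells Max followed at 45.4 ± 0.0336, and the repressors were lower, with Mxi1 at 16.6 ± 0.285, Mnt at 14.2 ± 0.243, Mxd1 at 11.02 ± 0.723, Mxd4 at 10.0 ± 0.833 and Mxd3 at 5.52 ± 0.412. Neighbours in that order did not overlap between libraries except Mxd1 and Mxd4. Max and Mlx could not be ordered in RN2 cells after DMSO, where Max ranged from 42.1 to 46.9 and Mlx from 44.98 to 48.4.

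In sgSik3 cells the activator Myc was lower and 3 of 5 repressors were higher. Of the 8 members with enough reads to test, 6 passed in sgSik3 cells, 4 higher and 2 lower, while 47.8% of the 10934 genes tested passed in either direction (23.9% higher and 23.9% lower). Mycn and Mycl were too low to test. With so large a background the count of members called says little by itself, and the sizes and directions are given below. Values here are the deposited normalised read counts, which are reads divided by a library's size factor, and log2 fold changes are on the log2 scale after adding 1.

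Myc was at 2976.4 and 3118.9 normalised read counts in sgSik3 cells, against 5074.9 and 5032.1 in sgRosa26 cells. Both knockout libraries lay below both controls, by far more than either group's spread. Myc averaged 3048 ± 101 in sgSik3 cells and 5054 ± 30.3 in sgRosa26 cells (SD, n = 2 each), a ratio of 0.603 and a log2 fold change of -0.73 (SE 0.04, limma adjusted p = 1.4e-06). It ranked 78 of the 10934 genes by p, and 341 genes had a more negative fold change. The call held in every alternative that kept all libraries. With 1 library left out at a time, the log2 fold change lay between -0.76 and -0.70.

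Among the partners, Max and Mlx moved in opposite directions. Max, the obligate partner of MYC and a partner of the MXD proteins, was at 1590.8 and 1536.0 in sgSik3 cells. In sgRosa26 cells it was at 1809.8 and 1824.0. Max fell by 0.22 on the log2 scale (SE 0.04, adjusted p = 0.0025), with no overlap between groups, to 86.0% of its control level. Mlx, the partner of MondoA, was at 2525.9 and 2486.8 in sgSik3 cells, against 2137.2 and 2036.4 in sgRosa26 cells. It rose by 0.26 (SE 0.04, adjusted p = 0.00067), also without overlap. Mlx shares 385 exon bases, 19.4% of its exons, with Psmc3ip on the opposite strand, and the library kit does not mark strand, so reads there cannot be assigned. Psmc3ip itself averaged 588.5 in sgSik3 cells and 579.2 in sgRosa26 cells, a log2 fold change of 0.02 (adjusted p = 0.83).

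Mxi1 had the largest fold change of the 5 repressors. This member, which replaces MYC at MAX and recruits SIN3, was at 3141.8 and 3065.4 in sgSik3 cells, against 2221.9 and 2296.7 in sgRosa26 cells. Both knockout libraries were higher than both controls, for a ratio of 1.37 and a log2 fold change of 0.46 (SE 0.04, adjusted p = 1.8e-05). Mxd4, a repressor known from cells leaving the cycle, was at 971.0 and 944.3 in sgSik3 cells, against 744.1 and 844.7 in sgRosa26 cells. It rose by 0.27 (SE 0.07, adjusted p = 0.0095), with the control libraries further apart than the knockout ones. Mxd1, the repressor induced as myeloid cells mature, was at 1243.5 and 1176.8 in sgSik3 cells, against 999.9 and 1106.9 in sgRosa26 cells. It rose by 0.20 (SE 0.06, adjusted p = 0.023) without overlap, and the gap between the nearest libraries was smaller than the distance between the controls.

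The other repressors did not pass. Mxd3, the member expressed in S phase, was at 156.7 and 168.1 in sgSik3 cells, against 157.1 and 142.6 in sgRosa26 cells, which overlapped (log2 fold change 0.12, adjusted p = 0.46). Mnt, the broadly expressed repressor that balances MYC in cycling cells, was at 1275.6 and 1289.2 in sgSik3 cells, against 1311.3 and 1355.3 in sgRosa26 cells (-0.06, adjusted p = 0.34). It was the only one of the 5 repressors with a mean below the controls. In all, 7 of 8 tested members did not overlap between groups, and 75.2% of all genes tested did not. The Mxd1 call was lost with DESeq2 (adjusted p = 0.086, with 32.3% of genes called), without the mean-variance trend (0.10), without sgSik3 guide e1 (0.17) or e3 (0.055) and without sgRosa26 library 1 (0.074), and the Mxd4 call was lost without the trend (0.066) and without guide e1 (0.078). Exons of Mxd4 share 514 bases, 13.2%, with an unnamed gene model on the opposite strand. Those of Mxi1 share 194 bases, 2.91%, with another such model, and those of Mxd3 share 105 bases, 7.91%, with Prelid1, also on opposite strands.

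**Figure D1:**
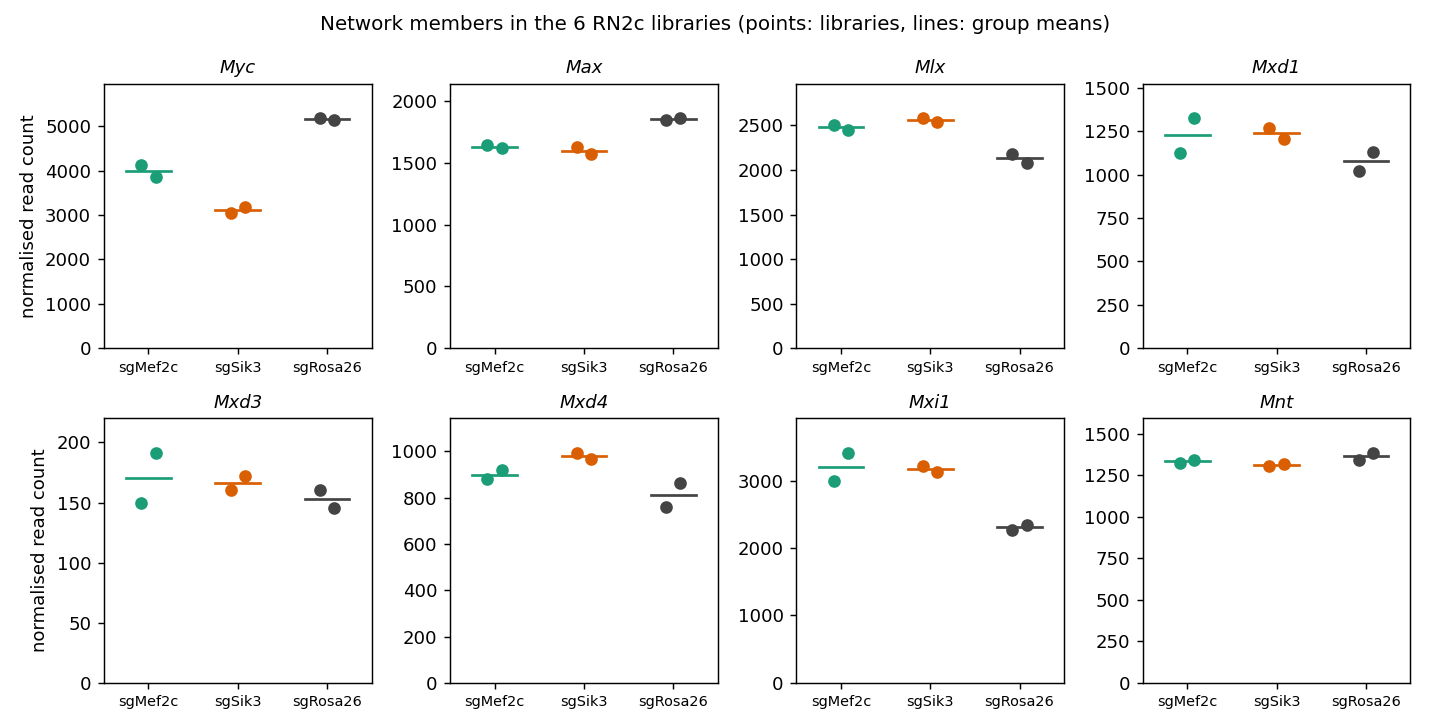
Normalised read counts of the 8 measured members in the 6 RN2c libraries, scaled together, with sgMef2c, sgSik3 and sgRosa26 side by side; points are libraries, lines are group means, and each y axis starts at 0. Myc is lowest in sgSik3 and intermediate in sgMef2c, while Mxi1 and Mlx lie above sgRosa26 in both knockouts.

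The balance between activator and repressors was taken as the log2 fold change of Myc minus the mean over Mxd1, Mxd3, Mxd4, Mxi1 and Mnt. It was -0.93 in sgSik3 cells, and -0.97 and -0.89 in the libraries of guides e1 and e3. The sgRosa26 libraries lay at 0.03 and -0.03 around their own mean. The median over the repressors in place of their mean gave -0.93. The fold change of Myc itself made up -0.73 of it.

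Most of the listed textbook MYC-activated genes fell with Myc. The list was chosen with earlier results of these data known, so its counts in every comparison are descriptions. Of 45 listed genes 44 were tested, of which 37 were lower, 3 were higher and 4 did not pass, with a median log2 fold change of -0.45 against -0.00054 over all genes, where 23.9% were called lower. Hspd1, the mitochondrial chaperonin, averaged 7034 in sgSik3 cells and 12474 in sgRosa26 cells (-0.83, adjusted p = 4.6e-07). Npm1, a nucleolar chaperone, averaged 15139 in sgSik3 cells and 24602 in sgRosa26 cells (-0.70, adjusted p = 5.9e-07). Ncl, nucleolin, fell by 0.69 (adjusted p = 1.5e-06), and Mybbp1a, a nucleolar factor of ribosome assembly, fell by 0.63 (adjusted p = 1.2e-06). The 3 that rose were the cell cycle factors E2f1 and E2f2 (0.60 for E2f2) and Id2 (0.37), an inhibitor of differentiation factors. These 3 were named after their values were seen. The count of lower targets stayed between 36 and 38 under every alternative, and the count of higher ones was 1 with DESeq2 and 1 without guide e1.

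MYC-repressed targets did not move one way. Of 12 listed 9 were tested, with 2 higher and 2 lower, a share near the 47.8% of all genes called. The growth arrest gene Gadd45a rose by 0.75 (SE 0.08, adjusted p = 5.8e-05) and the cyclin-dependent kinase inhibitor Cdkn1b by 0.49 (adjusted p = 0.00075). Cdkn1a, the p21 inhibitor and a classic target of MYC repression, fell by 0.47 (adjusted p = 1.4e-05), and the stress gene Ndrg1 fell by 0.50 (adjusted p = 0.00046).

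Lists of genes that work with the network were called about as often as all genes (47.8%), so their counts are no result about the lists. Of 13 coactivators of MYC, 4 fell and 2 rose, among them the AAA ATPases Ruvbl2 (-0.45) and Ruvbl1 (-0.35), the acetyltransferase Kat2a (-0.42) and the scaffold Trrap (0.14). Of 13 corepressor genes used by MXD proteins, 4 fell and 1 rose, and those that fell include the histone chaperone Rbbp7 (-0.24), the SIN3 subunit Sap30 (-0.27) and the deacetylase Hdac2 (-0.18). Both SIN3 scaffolds and Hdac1 did not pass. Of 13 genes that set MYC protein turnover, 6 fell and 1 rose, with the phosphatase subunit Ppp2r5a at 0.29, the kinase Aurka at -0.22 and the ubiquitin ligase Huwe1 at -0.17. The wider network gave 1 higher, Mlxip, which encodes MondoA (0.23, adjusted p = 0.0029), and 1 lower, Mga, a MAX partner with a T-box (-0.18, adjusted p = 0.0072), of 3 tested. Txnip, the glucose-responsive target of MondoA and MLX, rose by 0.17 (adjusted p = 0.011), and Arrdc4, the other such target, was at 0.01. Among 9 other E-box factors, Tfap4, itself a MYC target, fell by 0.47 (adjusted p = 0.00075) and Mitf by 0.67 (adjusted p = 0.0074), while Usf2 rose by 0.18 and Tfec by 0.20.

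Genes that act upstream of Myc transcription were tested in 12 cases, of which 5 rose and 2 fell, against 47.8% of all genes called, led by the receptor Notch1 (0.80, adjusted p = 1.2e-06), Stat3 (0.58, adjusted p = 6.0e-06), Myb (0.34, adjusted p = 3.9e-05) and Nfatc1 (0.28, adjusted p = 0.0014).

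Markers of maturation moved with these changes. All 9 granulocyte markers were higher, with summed normalised read counts of 152060 and 141333 in sgSik3 cells, against 49362 and 54212 in sgRosa26 cells. Of 6 monocyte markers 5 were lower, with sums of 5940 and 6025 in sgSik3 cells, against 9673 and 10815 in sgRosa26 cells. Among all genes tested, 23.9% were called higher and 23.9% lower. Of 8 myeloid identity genes 6 were higher and 0 lower. Their part in the member changes was not tested, and in bulk RNA fewer cells with Myc and less Myc RNA per cell cannot be told apart. No defining T cell marker had a read, and 3 of 4 erythroid markers were at 0.

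**Figure D2:**
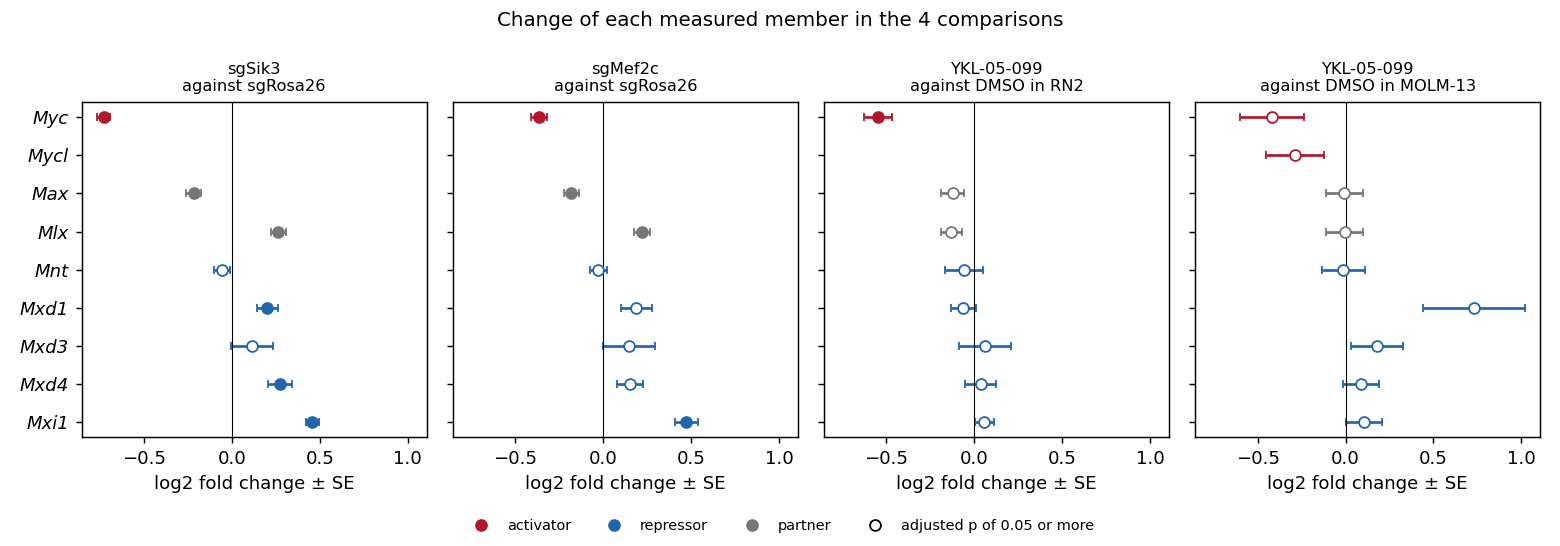
log2 fold change (points) with its standard error (bars) of each measured member in the 4 comparisons; filled points passed an adjusted p of 0.05, red marks activators, blue repressors and grey partners. Myc lies left of 0 in all 4 panels and is filled in 3, while Mxi1 is filled to the right of 0 in the 2 knockouts only.

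In sgMef2c cells Myc was again lower and Mxi1 higher, with fewer repressors past the test. Of 8 tested members 4 passed in sgMef2c cells, 2 higher and 2 lower, against 31.4% of 10956 genes in either direction (16.3% higher and 15.1% lower). The number of genes called, 3442, came to 2206 without sgRosa26 library 1, 2119 without sgRosa26 library 2 and 1815 without guide 2. These values come from a table scaled on its own, so the sgRosa26 counts differ from those above although the reads are the same.

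Myc was at 4255.6 and 3988.1 in sgMef2c cells, against 5334.6 and 5275.8 in sgRosa26 cells. Both knockout libraries lay below both controls, and guide 2 was lower than guide 1. The ratio was 0.777 and the log2 fold change -0.36 (SE 0.04, limma adjusted p = 0.0016). With 1 library left out at a time, the log2 fold change ranged from -0.41 to -0.32. In this comparison 988 genes had a more negative fold change.

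Max was at 1694.0 and 1667.2 in sgMef2c cells, against 1902.4 and 1912.3 in sgRosa26 cells. It fell by 0.18 (SE 0.04, adjusted p = 0.018) with a gap wider than either group's spread. Mlx was at 2586.7 and 2520.1 in sgMef2c cells, against 2246.5 and 2135.0 in sgRosa26 cells, and rose by 0.22 (adjusted p = 0.011). Its opposite-strand neighbour Psmc3ip was also at a higher mean, 696.7 in sgMef2c cells and 608.1 in sgRosa26 cells (0.19, adjusted p = 0.077). Of these calls, all kept with edgeR (31.3% of genes called), Max was lost with DESeq2 (adjusted p = 0.10, with 20.6% called), without the trend (0.068), and without sgRosa26 library 1 (0.071), library 2 (0.080) or guide 2 (0.079). The Mlx call was lost without the trend (0.066) and without sgRosa26 library 2 (0.065), where 2 members in all passed.

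Mxi1 was at 3083.6 and 3516.4 in sgMef2c cells, against 2335.5 and 2407.9 in sgRosa26 cells. It was higher with both guides, more so with guide 2, and rose by 0.47 (SE 0.06, adjusted p = 0.0024). With 1 library left out at a time, the log2 fold change of Mxi1 ranged from 0.38 to 0.57. Mxd1 was at 1161.3 and 1365.6 in sgMef2c cells, against 1051.1 and 1160.6 in sgRosa26 cells. The lower knockout library was level with the higher control, and the difference did not pass (0.19, SE 0.09, adjusted p = 0.14). The log2 fold change of Mxd1 was 0.31 without guide 1 and 0.07 without guide 2. Mxd4 was at 907.9 and 945.6 in sgMef2c cells, against 782.1 and 885.6 in sgRosa26 cells (0.15, adjusted p = 0.15). Mxd3 was at 154.0 and 197.1 in sgMef2c cells, against 165.1 and 149.5 in sgRosa26 cells, and Mnt was at 1362.7 and 1383.9, against 1378.4 and 1420.9 in sgRosa26 cells. Both overlapped and neither passed (Mxd3 0.15, adjusted p = 0.48, and Mnt -0.03, adjusted p = 0.70). In all, 6 of 8 tested members did not overlap between groups, against 70.5% of all genes.

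The balance of Myc against the 5 repressors was -0.55 in sgMef2c cells, of which Myc itself made up -0.36. The balance was -0.42 for guide 1 and -0.68 for guide 2, and -0.52 with the median over repressors. The guide 2 library also had the larger granulocyte sum. All 9 granulocyte markers were higher, against 16.3% of all genes tested. Their sums were 147015 for guide 1 and 235629 for guide 2, against 51887 and 56838 in sgRosa26 cells. All 6 monocyte markers were lower, against 15.1% of all genes tested, and the sums were 5670 and 4898 in sgMef2c cells. In sgRosa26 cells the monocyte sums were 10168 and 11339. Their part in the member changes was not tested.

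MYC-activated targets were lower in 36 of 44 cases, higher in 4, with a median of -0.29 against 0.00016 over all genes and 15.1% of all genes called lower. Npm1 was at -0.43 (adjusted p = 0.0011), Nolc1, a nucleolar scaffold, at -0.39 (adjusted p = 0.0012) and Hspd1 at -0.49 (adjusted p = 0.0012). E2f2 led the genes that rose (0.71, SE 0.07, adjusted p = 9.0e-04), with E2f1, Cdc25a, a cell cycle phosphatase, and Id2, named after their values were seen. Without the mean-variance trend 17 targets were lower and 1 higher, and 2 were higher without sgRosa26 library 1 or 2 and 1 without guide 2. The repressed targets again split, with 2 of 9 higher and 3 lower, against 31.4% of all genes called: Gadd45a rose by 0.98 (adjusted p = 0.00047) and Gadd45b by 0.49, and Cdkn1a fell by 0.49 (adjusted p = 0.00058) and Ndrg1 by 0.80.

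Counts for the other lists in sgMef2c cells stand beside the 31.4% of all genes called in either direction. Of 13 coactivators 3 fell (Ruvbl1 -0.24, Kat2a -0.24, Ruvbl2 -0.19) and 0 rose. Of 13 corepressors 2 fell, among them Sap30 (-0.28). Turnover genes gave 2 higher and 3 lower of 13, with Ppp2r5a at 0.23, Fbxw7, the ubiquitin ligase that marks MYC for destruction, at -0.30, and Huwe1 at -0.18. Mlxip (0.08) and Mga (-0.09) did not pass, nor did Txnip (-0.11) or Arrdc4 (-0.30). Of 9 other E-box factors 2 rose (Tfec 0.19, Usf2 0.20) and 1 fell (Tfe3 -0.20). Among upstream genes 4 of 12 rose and 2 fell, with Notch1 at 0.60 (adjusted p = 7.0e-04), Stat3 at 0.43, Myb at 0.28 and Rbpj, the DNA-binding partner of Notch, at -0.30.

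**Figure D3:**
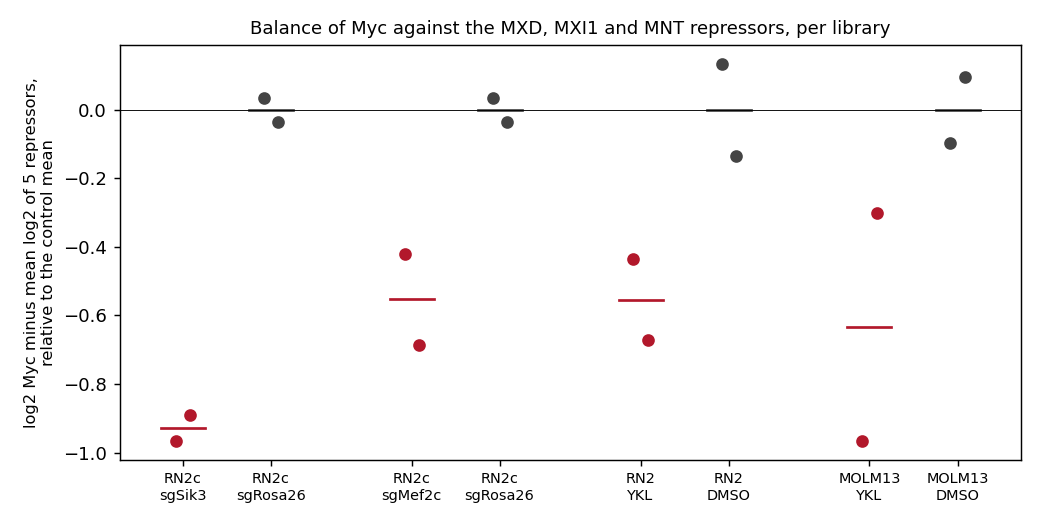
log2 Myc minus the mean log2 of the 5 repressors in each library, relative to the mean of its control group; red points are perturbed libraries, grey points controls and lines are group means. All 8 perturbed libraries lie below their controls, at -0.97 and -0.89 for sgSik3 and with the widest spread, -0.97 and -0.30, in MOLM-13.

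The knockouts themselves differed in Myc. Editing in these groups was not measured here, and its part in the difference was not tested. All 6 RN2c libraries were scaled together from their reads, and on that scale Myc was at 4126.7 and 3870.8 in sgMef2c cells, against 3042.7 and 3187.3 in sgSik3 cells. Each sgMef2c library lay above each sgSik3 library, a log2 difference of 0.36 (SE 0.04, limma adjusted p = 0.0017). Myc was the 1 member of 8 tested that passed, against 9.78% of 10948 genes (4.18% higher and 5.6% lower), and 4 members did not overlap, against 57.5% of all genes. Mxi1 was at 2990.2 and 3413.0 in sgMef2c cells, against 3211.8 and 3132.6 in sgSik3 cells, an overlap with a log2 difference of 0.01 (SE 0.06, adjusted p = 0.93). The other 6 had log2 differences between -0.12 for Mxd4 (adjusted p = 0.28) and 0.03, which does not show that they were alike. The balance was 0.38 higher in sgMef2c than in sgSik3 cells. The Myc call held with edgeR (adjusted p = 0.0025, with 9.44% of genes called) but was lost without the trend (0.073) and without sgSik3 guide e1 (0.069).

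MYC-activated targets were higher at the median in sgMef2c than in sgSik3 cells, as Myc was. Of 44 MYC-activated targets tested, 23 were higher and 0 lower in sgMef2c than in sgSik3 cells, while 4.18% of all genes were called higher. Their median difference was 0.18 against 0.0075 over all genes. Mybbp1a was at 0.27 (adjusted p = 0.0038), Pa2g4, a growth-linked RNA-binding protein, at 0.29 (0.0047), Ncl at 0.29 (0.0049) and Hspd1 at 0.33 (0.0052). This count rests on few libraries: it was 11 without sgMef2c guide 1, 0 without sgSik3 guide e1, 0 without guide e3 and 0 without the trend, while the number of all genes called, 1071, came to 633, 45, 58 and 72 in these cases. Txnip was lower in sgMef2c than in sgSik3 cells (-0.28, adjusted p = 0.0088), as was Notch1 (-0.21, adjusted p = 0.029), and Tfap4 was higher (0.31, adjusted p = 0.030). The coactivators Ruvbl2 (0.25, adjusted p = 0.0072) and Kat2a (0.18) and the corepressor Rbbp7 (0.16) were higher, as was Aurka (0.20).

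**Figure D4:**
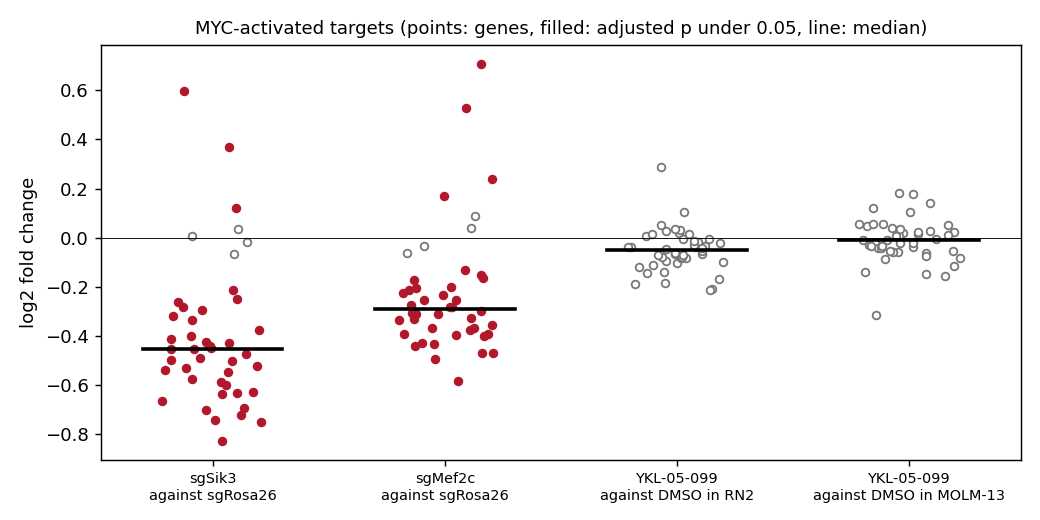
log2 fold change of each tested MYC-activated target (points, filled where the adjusted p was under 0.05) in the 4 comparisons, with the median as a line. The medians are -0.45 in sgSik3, -0.29 in sgMef2c, -0.05 in RN2 and -0.01 in MOLM-13 cells, and no point is filled after YKL-05-099.

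In RN2 cells Myc was lower after 2 h of YKL-05-099, and no other member passed. Here 1 of 8 tested members was called, against 0.317% of 10732 genes (0.0373% higher and 0.28% lower). Myc was at 2318.0 and 2025.5 after YKL-05-099, against 3450.4 and 2908.0 after DMSO. Both treated libraries lay below both controls, although the libraries of each group stood well apart. Myc averaged 2172 ± 207 after YKL-05-099 and 3179 ± 384 after DMSO (SD, n = 2 each), a ratio of 0.683 and a log2 fold change of -0.55 (SE 0.08, limma adjusted p = 0.026). It ranked 22 of all genes by p. The call held with edgeR (adjusted p = 0.031, with 0.28% of genes called). It was lost with DESeq2 (0.086, with 0.336% called), without the filter on low values (0.59) and without the trend (0.55). With 1 library left out at a time, the log2 fold change ranged from -0.67 to -0.42. Each such fit drops the spread between the 2 libraries of a group, which was wide here, so passing it says little. The number of genes called, 34, came to 130 without DMSO library 1 and 321 without DMSO library 2.

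No partner or repressor passed the test in RN2 cells. Max was at 1172.1 and 1161.8 after YKL-05-099, against 1346.4 and 1200.0 after DMSO (-0.12, adjusted p = 0.75), and Mlx at 1262.5 and 1213.5, against 1409.3 and 1302.0 after DMSO (-0.13, adjusted p = 0.69). Neither overlapped, but the DMSO libraries of Max were further apart than the group means. Mxd1 was at 632.7 and 638.0 after YKL-05-099, against 679.0 and 648.0 after DMSO (-0.06, adjusted p = 0.91), and Mxi1 at 1662.0 and 1572.1, against 1513.2 and 1597.0 after DMSO (0.06, adjusted p = 0.90). Mxd3 (0.06), Mxd4 (0.04) and Mnt (-0.06) overlapped between groups. In all, 4 of 8 tested members did not overlap, against 36.8% of all genes. The balance was -0.55, from -0.44 and -0.67 in the treated libraries, with the DMSO libraries at 0.14 and -0.14, and -0.58 with the median over repressors. Nearly all of the balance was the fold change of Myc itself, -0.55.

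No listed target or cofactor passed in RN2 cells after 2 h. The 44 MYC-activated targets had a median of -0.05 against -0.00090 over all genes, with E2f2 at 0.29 (adjusted p = 0.13), Hk2, a glycolytic enzyme, at -0.21 (0.22) and Ppan, a ribosome assembly factor, at -0.21 (0.23). Without DMSO library 2, 6 targets were lower and 1 higher, and without DMSO library 1, 1 was higher. Cdkn1a was at -0.25 (adjusted p = 0.23), Sap30 at -0.26 (0.26) and Notch1 at 0.26 (0.27). Granulocyte markers gave 0 calls, and their sums were 30355 and 29057 after YKL-05-099, against 28740 and 28495 after DMSO.

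**Figure D5:**
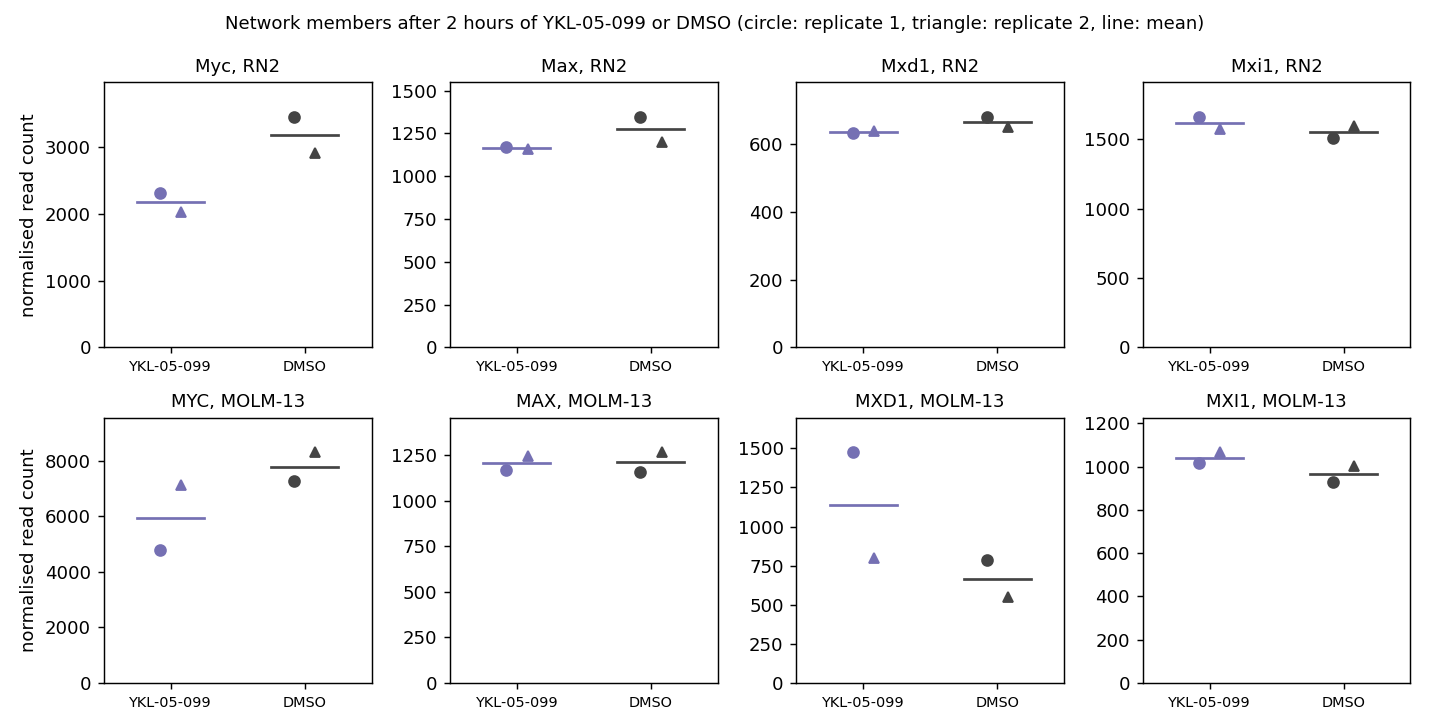
Normalised read counts of 4 members after 2 h of YKL-05-099 (left) or DMSO (right) in RN2 cells (upper row, 350 nM) and MOLM-13 cells (lower row, 250 nM); circles and triangles are the libraries numbered 1 and 2, lines are means and y axes start at 0. Myc is lower in both treated RN2 libraries, and the MOLM-13 libraries of MYC and MXD1 are widely spread.

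In MOLM-13 cells no member passed, in a comparison where 0 of 11361 genes did (0%). The count was 0 with edgeR and 7 with DESeq2 (0.0616%), and 144 genes (1.27%) had an unadjusted p under 0.05 in limma. All 9 members other than MYCN were tested. MYC was at 4769.0 and 7105.6 after YKL-05-099, against 7268.7 and 8298.1 after DMSO. Both treated libraries lay below both controls, but library 2 lay only just below, and the treated libraries were further apart than the group means (log2 fold change -0.42, SE 0.18, adjusted p = 0.9999). With 1 library left out at a time, the log2 fold change of MYC ranged from -0.70 to -0.13. MXD1 was at 1475.0 and 801.5 after YKL-05-099, against 783.1 and 549.2 after DMSO. It had the lowest p of the members (0.73, SE 0.29, unadjusted p = 0.041, adjusted p = 0.9999), with the lower treated library near the higher control, and only 46 genes had a larger positive fold change. With 1 library left out at a time, the log2 fold change of MXD1 ranged from 0.29 to 1.17.

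MYCL was at 198.1 and 193.0 after YKL-05-099, against 211.8 and 269.4 after DMSO (-0.29), with the DMSO libraries well apart. MXI1 was at 1016.1 and 1066.1, against 930.9 and 1004.2 after DMSO (0.11), and MXD3 at 278.1 and 316.2, against 243.2 and 281.4 after DMSO (0.18). MXD4 was at 756.6 and 772.8, against 721.2 and 719.4 after DMSO (0.09). None of these passed. MAX, MNT and MLX were each within 0.02 of 0 on the log2 scale and overlapped. In all, 5 of 9 tested members did not overlap, against 21.2% of all genes. The balance was -0.63, from -0.97 and -0.30 in the treated libraries, with the DMSO libraries at -0.10 and 0.10, and -0.52 with the median over repressors. MYC itself made up -0.42 of the balance. The 45 MYC-activated targets had a median of -0.01, led by HK2 (-0.16), BOP1 (0.18), RRS1 (-0.15) and LDHA (0.10), and none passed. Granulocyte sums were 18185 and 22153 after YKL-05-099, against 20240 and 22394 after DMSO. The doses, species and builds of the inhibitor experiments differ, so the values of RN2 and MOLM-13 cells stand side by side without a test between them.

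Across the 6 jointly scaled RN2c libraries, the genes most like Myc out of 9623 with a mean of at least 50 were Ppp5c (Pearson r 0.999), a phosphatase, Slc19a1 (0.999), the reduced folate carrier, Eif2b5 (0.998), a subunit of a translation initiation exchange factor, Srp68 (0.998), a signal recognition particle subunit, and Ubqln4 (0.997), a ubiquilin. Slc19a1 ranged from 568.0 to 1182 normalised read counts over the libraries. Those most like Mxd1 were Stoml1 (0.995), Esco1 (0.993), an acetyltransferase of cohesin, Scmh1 (0.991), a polycomb protein, Psenen (0.986), a gamma-secretase subunit, and Acap3 (0.978). These are descriptions over 3 groups of 2 libraries, in which every gene is read from the same 6 libraries, and high values are what a search over so many genes returns.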

How the data were processed

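PolyA RNA was sequenced in 14 libraries of 7 groups. The submitters' processing notes name the tools HISAT2, featureCounts and DESeq2, without versions, and the genome builds hg19 and mm10. The authors deposited 1 table per comparison, 4 in all, holding a linear signal: each gene's reads over the size factor that DESeq2 gave its library. Whole reads were recovered from every library by dividing by its smallest nonzero value. Each table was fitted on its own with limma 3.58.1 in R 4.3.3 (eBayes, two-sided, its prior variance following mean expression) on log2(value + 1) for genes with a mean of at least 10, with Benjamini-Hochberg adjustment over all genes tested and a threshold of 0.05. A fold change on this scale understates the change of low genes. The sgMef2c and sgSik3 groups were compared on reads of the 6 RN2c libraries with joint size factors. The scripts were tested on simulated data.

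Alternatives were a pseudocount of 5, no filter, TMM scaling, no trend, edgeR 4.0.16 and DESeq2 1.42.0 on recovered reads, leaving out each library, and the library number as a block. When a group is left with 1 library, that library is assumed to vary like the others. The library numbers do not establish pairs, since each group has 2 libraries and no label says that a number marks a shared culture. Named genes are all members, the targeted genes and up to 4 genes of lowest p in each list, apart from a few that are not reported here. The members and lists were chosen with earlier results of these data known. Libraries of a group differed by more than sampling noise (chi-square over degrees of freedom 1.74 to 15.11), so none was counted as a duplicate. Exon lengths and overlaps come from GENCODE on GRCm38, and no human annotation was used here. Intervals and limits cover counting error only.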

Additional observations from a re-analysis of the deposited data

Results flagged for a closer look

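Myc differed between the knockouts, with a log2 difference of 0.36 (sgMef2c minus sgSik3, SE 0.04, limma adjusted p = 0.0017), and the test was of the difference itself. The sgMef2c libraries were at 4126.7 and 3870.8 normalised read counts and the sgSik3 libraries at 3042.7 and 3187.3. The call was lost without the mean-variance trend and without sgSik3 guide e1. With 1 library left out at a time, the log2 difference ranged from 0.31 to 0.41.

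The mean of Mxd1 lay on opposite sides of its control in the 2 lines given YKL-05-099. Its log2 fold change was -0.062 in RN2 cells, smaller than its SE of 0.068, with both treated libraries below both DMSO libraries. That of MXD1 was 0.729 (SE 0.29) in MOLM-13 cells, where both treated libraries lay above both DMSO libraries. Groups of 2 also did not overlap for 36.8% of all genes in RN2 cells and 21.2% in MOLM-13 cells. Neither fold change passed the test in its own line, the doses differed, and the difference between the lines was not tested.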

How the results depend on the processing

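Of 452 values of members under alternatives, 405 kept their direction and side of the threshold, 19 kept direction and lost the call, 10 kept direction and gained it, and 18 changed sign. The sign changes were all of log2 differences that did not pass, each without 1 library. For sgMef2c, Mxd3 ranged from -0.029 to 0.33 (negative without guide 2). In RN2 cells Mxd3 ranged from -0.034 to 0.15 (negative without YKL-05-099 library 2), Mxd4 from -0.038 to 0.11 and Mnt from -0.23 to 0.12 (both turned without DMSO library 2 or YKL-05-099 library 1). In MOLM-13 cells MAX ranged from -0.070 to 0.056, MNT from -0.11 to 0.082 and MLX from -0.072 to 0.061 (all positive without DMSO library 2 or YKL-05-099 library 1). For sgMef2c against sgSik3, Mxd1 ranged from -0.13 to 0.10 (positive without sgMef2c guide 1 or sgSik3 guide e1), Mxd3 from -0.15 to 0.20 (negative without sgMef2c guide 2 or sgSik3 guide e1) and Mxi1 from -0.085 to 0.11 (negative without sgMef2c guide 2 or sgSik3 guide e3). In sgSik3 cells the counts of genes, members and lower targets stayed within 1.5 times, and higher targets numbered 1 with DESeq2 and 1 to 3 without 1 library.

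In sgMef2c cells, genes called numbered 1628 without the trend, 2255 with DESeq2 and 1815 to 3138 without 1 library. Members called were 2 without the trend and 2 to 5 without 1 library. Lower targets were 17 without the trend, and higher targets 1 without the trend and 1 to 3 without 1 library.

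In RN2 cells, genes called numbered 3 without the filter, 0 without the trend and 28 to 321 without 1 library, and members called were 0 without the filter, the trend or with DESeq2. Lower targets were 0 to 6 and higher ones 0 to 1 without 1 library. In MOLM-13 cells, genes called were 7 with DESeq2 and 14 to 20 without 1 library, with 0 to 2 members.

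For sgMef2c against sgSik3, genes called were 72 without the trend and 45 to 801 without 1 library, members 0 without the trend and 0 to 1, and higher targets 0 without the trend and 0 to 25.

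With the replicate number as a block, the RN2 count was 499 (492 with edgeR, added after seeing the data), with 10 lower targets (9 with edgeR) and 1 higher. The MOLM-13 count was 290 (285 with edgeR), with 2 members, MYC and MXD1, 3 lower targets and 1 higher, also with edgeR. In sgMef2c cells, where the number is that of the guide and cannot mark a culture shared with sgRosa26, the block brought 1 more member, Mxd1, past the test (adjusted p = 0.025). Deviations of same-numbered libraries correlated at 0.05 in sgMef2c, 0.22 in RN2 and 0.53 in MOLM-13 across genes. No paired analysis was possible for sgSik3 because its guides are numbered e1 and e3. The cause of these differences was not tested.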
